A study of Mus musculus with 2 samples.

Results

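Netrin-G1 and netrin-G2 and their partners, the netrin-G ligands NGL-1, NGL-2 and NGL-3, are synaptic adhesion proteins encoded by Ntng1, Ntng2, Lrrc4c, Lrrc4 and Lrrc4b. They were taken by symbol as members of 1 gene set, which was picked with earlier results of these data known. The set is called the family below for short, and the word does not mean that netrin-Gs and NGLs share descent. All 5 genes were present among the 33696 genes of the deposited matrices. Their nuclear RNA was described across cell classes of the mouse hippocampus at postnatal day 19.

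The study compared 2 libraries of single nuclei. The control library came from Cicflox/flox mice, which carry floxed copies of Cic, the gene of the transcriptional repressor Capicua. The other library, labelled knockout, came from Emx1-Cre; Cicflox/flox littermates. Both groups therefore share the floxed allele, and Cre is the difference between them. Emx1-Cre acts in the dorsal telencephalic lineage, which gives rise to the excitatory neurons and much of the glia of the hippocampus, while interneurons and microglia arise elsewhere. Tissue of 3 mice, 2 males and 1 female with 1 hippocampus each, was pooled for each library, which aimed at 20000 nuclei, and was made with the 10x Genomics 3′ GEM-X chemistry, which counts molecules by unique molecular identifiers (UMIs). With 1 pool per group there was no replicate error and no test of a difference was possible. Every interval given is a 95% interval for counting error only and covers neither mice nor library preparation.

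Netrin-Gs are relatives of the classical netrins that are held in the axonal membrane by a lipid anchor and do not act through the classical netrin receptors. Netrin-G1 on the axon binds NGL-1 on the dendrite, and netrin-G2 binds NGL-2, so that different axons entering a dendritic field are matched with different segments of the same dendrite. NGL-3 binds instead the receptor tyrosine phosphatases of the LAR family, and the intracellular ends of NGLs bind the PSD-95 family of scaffolds. The title of the series concerns mossy fibers, the output axons of dentate granule cells that end in CA3.

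The control library held 25907 barcodes and 314453640 UMIs and the labelled-knockout library 23207 barcodes and 252995761 UMIs, of which 21837 and 20529 nuclei were used, with medians of 9783 and 8765 UMIs. The libraries shared 175 barcodes. Called doublets made up 12.9% and 10.9% of filtered nuclei and were left out, and 9.08% and 9.87% of the nuclei used stayed unnamed. The other nuclei fell into classes called "-like", because each name rests on fixed marker genes, and 17 classes had at least 100 nuclei in each library. In clusters 0, 3, 5, 7, 8, 17 and 29, which hold most granule-like, CA1-like, CA3-like, CA2-like and deep-layer nuclei, between 5 and 8 markers of the class's own set were raised. Cic itself was not lower beyond its counting interval in any of these classes of the labelled-knockout library. Granule-like nuclei had 513 Cic UMIs in the control and 514 in the labelled-knockout library, which after scaling to total UMIs is a log2 ratio over the control of 0.46 (0.29 to 0.64). Cic was also higher in CA1-like (0.86), CA3-like (0.75), subicular (0.88) and oligodendrocyte-like nuclei (0.76). It was at −0.14 and 0.02 in the interneuron-like classes and at −0.06 in microglia-like nuclei, with intervals that held 0. Gene counts cannot show whether the Cic transcripts held the floxed exons, so directions are given for the libraries as labelled.

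Levels are in CPM, a gene's UMIs relative to all UMIs of its class in the same library, and ratios are log2 of the labelled-knockout library over the control. A gene could be called in a class when the higher library had at least 50 UMIs and 10 CPM, and it was called when the levels differed by at least 2-fold. Of the 85 pairs of a family member and a class, 74 passed the minimum. Among these, 3 were at least 2-fold lower and 1 at least 2-fold higher in the labelled-knockout library, and all 4 were Ntng1. Over all genes and classes 1.63% of pairs past the minimum were at least 2-fold apart, and 5.77% at least 1.5-fold. At 1.5-fold 7 family pairs were called, the additions being Ntng2 and Lrrc4c in CA1 pyramidal-like nuclei and Lrrc4c in committed oligodendrocyte precursor-like nuclei. The gene spans in the GRCm38 annotation run from 34.3 kb for Lrrc4b to 1314 kb for Lrrc4c, and nuclear RNA holds unspliced transcripts of such spans, so levels are compared between classes and not between genes.

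**Figure D1:**
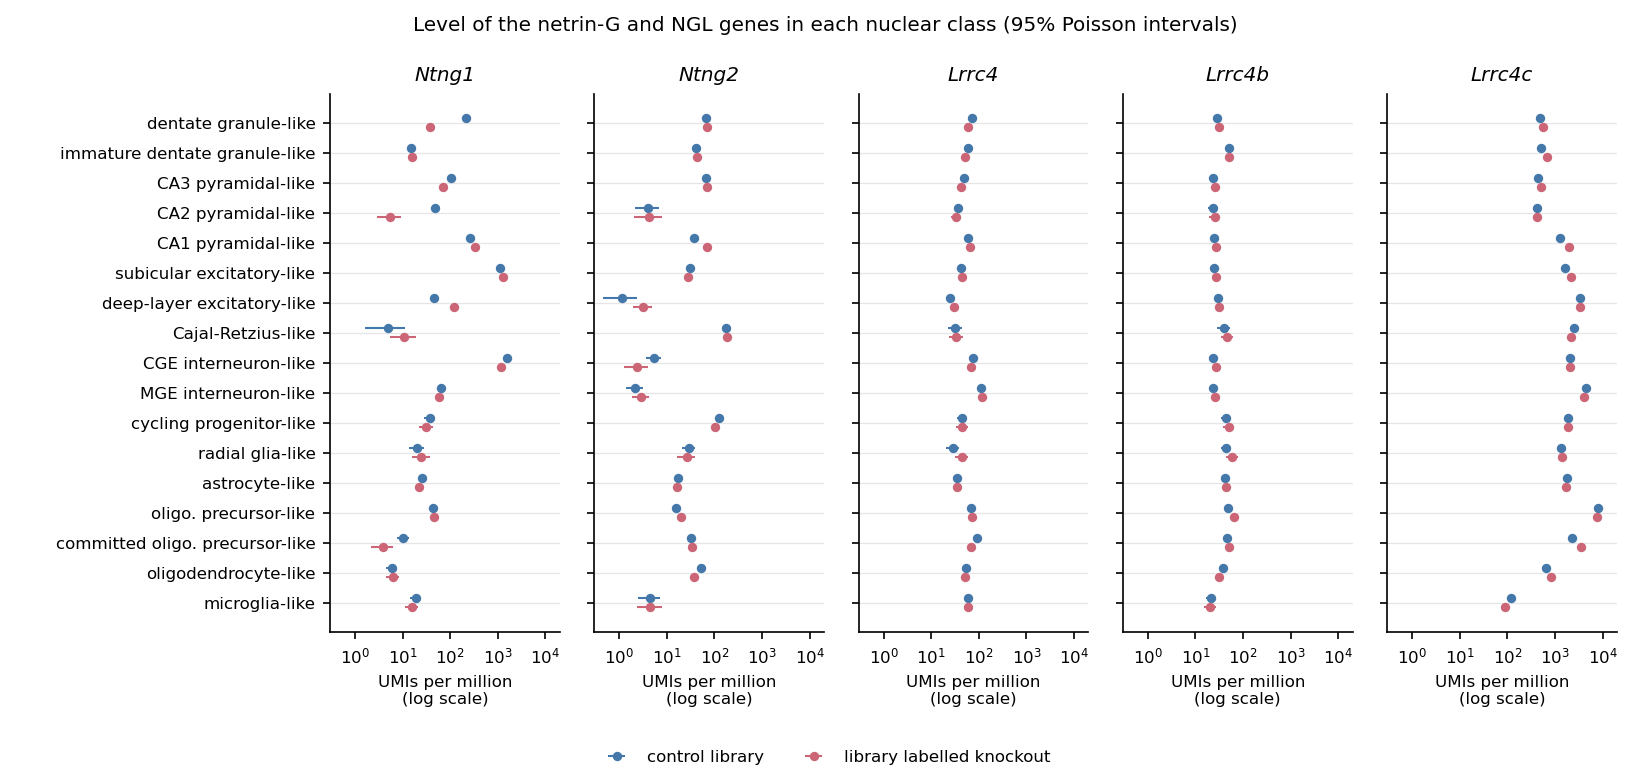
Level of each of the 5 genes in 17 nuclear classes, in CPM on a log axis, with blue points for the control library, red points for the labelled-knockout library and bars for 95% Poisson intervals. Ntng1 spans 3.87 to 1534 CPM while Lrrc4b stays between 20.3 and 64.4.

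Ntng1 encodes netrin-G1, the axonal partner of NGL-1. In the control library its level in dentate granule-like nuclei was 219 CPM (215 to 223), from 12313 UMIs in 4595 nuclei. In the labelled-knockout library it was 37.3 CPM (35.5 to 39.2), from 1524 UMIs in 3677 nuclei. The intervals are far apart, and the log2 ratio was −2.55 (−2.63 to −2.48). Of the 8430 genes past the minimum in this class 1.04% were at least 2-fold lower, and Ntng1 had the 4th lowest ratio of all. The other 4 genes of the family lay between −0.31 and 0.16, where the median of all genes was 0.02. Lrrc4, at −0.31, ranked 666th from the lowest, and the others lay nearer the middle.

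The 250 bases before the annotated start of Ntng1 are shown because it is the family member whose level differed most in granule-like nuclei and Capicua acts on promoters and enhancers. They lie at chr3:110143473-110143722 on the minus strand of GRCm38.p6 and come from RefSeq. The table gives 1 start for Ntng1, and which start granule cells use is not given in the sources used here, so the window may not be the promoter active in them.
Ntng1: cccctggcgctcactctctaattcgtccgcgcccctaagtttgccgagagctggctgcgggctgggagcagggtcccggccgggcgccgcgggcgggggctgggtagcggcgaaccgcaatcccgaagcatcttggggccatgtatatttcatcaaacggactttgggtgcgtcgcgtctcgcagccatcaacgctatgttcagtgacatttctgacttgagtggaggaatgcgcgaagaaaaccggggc
Of the octamers that Capicua is known to bind, TGAATGAA and TGAATGGA were searched on both strands, and other forms of the site were not. The windows ran from 250 bases before to 50 bases after each start. None of the 5 family windows held either octamer, and 811 of all 32851 windows did (2.47%). No letters are capitalised above for that reason, and the absence concerns these windows and these octamers alone.

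**Figure D2:**
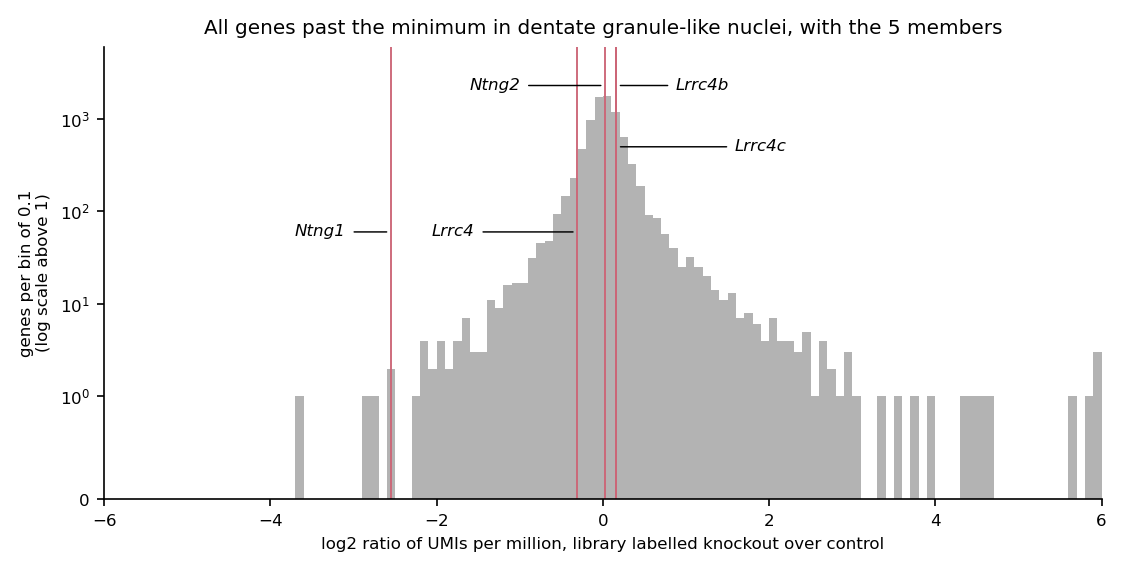
Number of genes (vertical axis, log scale above 1) by log2 ratio of the labelled-knockout library over the control in dentate granule-like nuclei, for the 8430 genes past the minimum, with ratios beyond 6 drawn in the outermost bins and red lines at the 5 family members. Ntng1 at −2.55 sits in the far left tail, and the other 4 lie between −0.31 and 0.16.

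The lower level was seen both in the share of nuclei with a UMI and in the nuclei rich in the transcript. An Ntng1 UMI was found in 57.1% of control granule-like nuclei (55.6% to 58.5%) and in 21.2% of those of the labelled-knockout library (19.9% to 22.5%). After each nucleus had been thinned to 2000 UMIs the shares were 27.3% and 6.70%. Microglia-like nuclei, which should lack the transcript, give the background of free RNA. They had a UMI in 3.64% and 2.58% of nuclei, or 2.94% and 1.94% after thinning, at median depths of 2152 and 1719 UMIs against 11728 and 10655 in granule-like nuclei. Thinning left out 663 of 1512 and 959 of 1475 microglia-like nuclei, which were too shallow for it. Both granule-like shares were thus above that background. Nuclei rich in the transcript were nearly absent from the labelled-knockout library: 334 control nuclei (7.27%) held 10 or more Ntng1 UMIs, against 5 of its nuclei (0.136%).

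**Figure D3:**
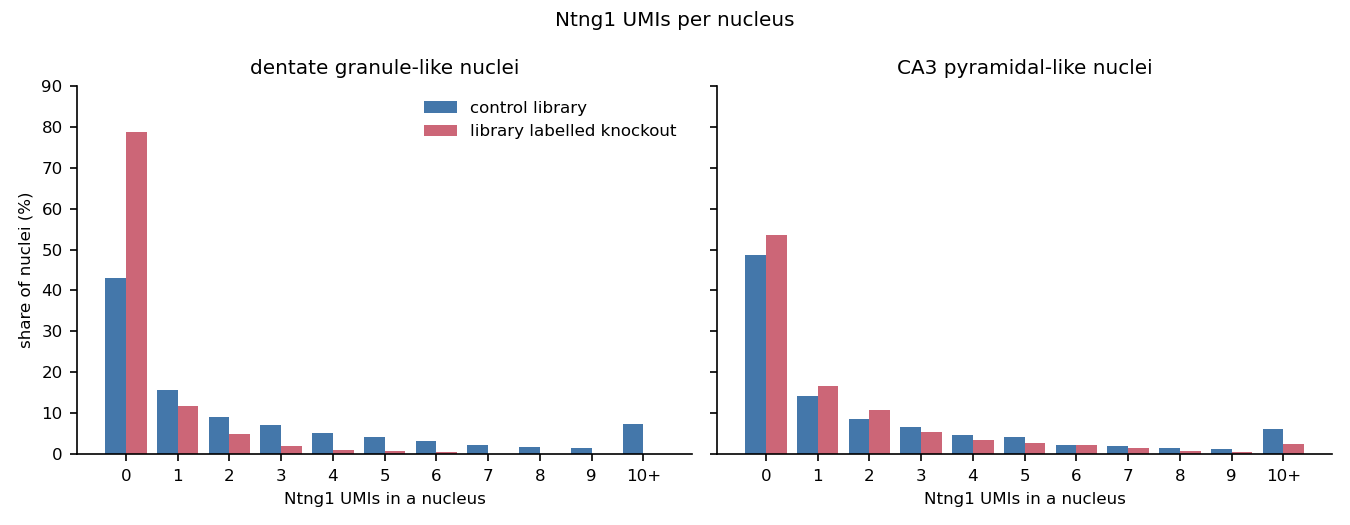
Share of nuclei (percent) by number of Ntng1 UMIs in the nucleus, for dentate granule-like and CA3 pyramidal-like nuclei, with blue bars for the control and red bars for the labelled-knockout library. Granule-like nuclei without a UMI made up 42.9% of the control and 78.8% of the labelled-knockout library, whereas in CA3 pyramidal-like nuclei they made up 48.6% and 53.7%.

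Nuclei were split by sex, and by the labels 1 mouse per library gave the female nuclei and 2 mice the male ones. Female granule-like nuclei had 242 CPM in the control and 38.2 CPM in the labelled-knockout library, a log2 ratio of −2.66 (−2.80 to −2.53). Male granule-like nuclei had 203 and 36.3 CPM, a log2 ratio of −2.48 (−2.60 to −2.37). The difference was therefore present in both sexes, although this split does not make replicates.

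Different clusters held most granule-like nuclei of the 2 libraries. Cluster 0, led by Bmp6 among named genes, held 1158 control nuclei and 3490 of the labelled-knockout library, and Ntng1 was at 97.4 and 36.4 CPM there, a log2 ratio of −1.42 (−1.53 to −1.31). Cluster 3, led by Dsp, Glis3 and Trpc6, held 3437 and 187 nuclei, with Ntng1 at 255 and 54.1 CPM and a log2 ratio of −2.23 (−2.51 to −1.97). The gene was lower within each cluster, by a smaller factor than in the class as a whole. When genes past the 2-fold rule in any class were left out of the clustering, a choice made after seeing the data and called the reduced-gene clustering from here on, 1 granule-like cluster of 4511 and 3602 nuclei formed and the log2 ratio was −2.56 (−2.64 to −2.49).

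Marker genes used to name classes also differed between the libraries in granule-like nuclei. The summed level of the 8 dentate granule markers was 5686 CPM in the control and 4498 CPM in the labelled-knockout library, with 8 of 8 lower and none at 0. The 8 immature granule markers summed to 137 and 209 CPM, with 8 of 8 higher and none at 0. The 8 markers of interneurons from the caudal ganglionic eminence (CGE), a class with high Ntng1, summed to 1586 and 1971 CPM, 6 of 8 higher and 1 at 0 in both libraries. Their part in the Ntng1 result was not tested. Immature dentate granule-like nuclei had little Ntng1 in either library, 14.8 CPM from 180 UMIs and 15.6 CPM from 160 UMIs, a log2 ratio of 0.08 (−0.24 to 0.39). Microglia-like nuclei, used above as the background of free RNA, had 19.0 and 15.8 CPM. After thinning a UMI was found in 2.56% and 2.70% of immature granule-like nuclei, against 2.94% and 1.94% of microglia-like nuclei. The immature levels were thus close to the microglia-like ones in CPM and in thinned shares. Counted per nucleus, immature granule-like nuclei had 0.075 and 0.062 Ntng1 UMIs, against 0.043 and 0.028 in the shallower microglia-like nuclei. Oligodendrocyte-like nuclei, at 5.93 and 6.25 CPM, lay below the microglia-like level, so that level is no fixed floor in CPM. Whether the immature levels exceeded free RNA was not settled, and no direction is drawn for that class. With called doublets kept its ratio was −1.01, past the 2-fold rule.

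In CA3 pyramidal-like nuclei, the neurons that mossy fibers contact, Ntng1 was at 102 CPM in the control (3023 UMIs) and 71.4 CPM in the labelled-knockout library (1750 UMIs). The log2 ratio was −0.51 (−0.60 to −0.43), short of 2-fold, and 1.62% of the 8192 genes past the minimum in this class were called in either direction. Both CA3-like clusters had lower values, −0.55 in cluster 7 and −0.46 in cluster 20. Female nuclei, at 113 and 55.7 CPM, gave −1.01 (−1.19 to −0.84), and male nuclei, at 101 and 75.1 CPM, gave −0.42 (−0.55 to −0.30). The size of the CA3 value therefore depended on which mice were counted, and its direction did not. The 8 dentate granule markers summed to 417 and 399 CPM in this class, with 2 higher, 6 lower and none at 0. The 8 CGE markers summed to 124 and 119 CPM, with 4 higher and 4 lower, and the part of either set was not tested.

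CA2 pyramidal-like nuclei, a small class of 145 control nuclei and 115 of the labelled-knockout library, had 168 and 13 Ntng1 UMIs. These are 47.8 CPM (40.9 to 55.6) and 5.47 CPM (2.91 to 9.35), a log2 ratio of −3.08 (−4.07 to −2.32). Of 5997 genes past the minimum 1.12% were at least 2-fold lower and 3.45% were called in either direction, and Ntng1 had the 2nd lowest ratio. A UMI was found in 46 control nuclei (31.7%) and in 10 of the labelled-knockout library (8.70%). One control nucleus held 38 of the UMIs, and without the top nucleus of each library the sums were 130 and 9 and the ratio −3.21. The class's make-up mattered more: in the reduced-gene clustering its control sum was 66 UMIs against 14, a log2 ratio of −1.75 (−2.74 to −0.94), and at the lower clustering resolution no CA2-like class formed. The 8 dentate granule markers summed to 709 and 855 CPM in this class, with 2 and 1 at 0, and the 8 CGE markers to 102 and 124 CPM, with 1 and 2 at 0, and their part was not tested.

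CA1 pyramidal-like nuclei had 12448 Ntng1 UMIs in the control and 12291 in the labelled-knockout library, or 264 and 328 CPM, a log2 ratio of 0.31 (0.28 to 0.35). Here the class value and the cluster values had opposite signs. Cluster 5, which held 886 control nuclei and 1753 of the labelled-knockout library, gave 499 and 326 CPM (−0.61). Cluster 8, with 1322 and 43 nuclei, gave 62.4 and 54.6 CPM (−0.17), and cluster 22, with 180 and 348 nuclei, gave 413 and 363 CPM (−0.19). Ntng1 thus differed several-fold among CA1-like clusters that the libraries filled unequally. In the reduced-gene clustering, clusters of 1602 and 1291 and of 1211 and 1248 nuclei gave 0.29 and 0.45, so no direction is drawn for CA1. The 5 subicular markers summed to 132 CPM in the control and 330.04 CPM in the labelled-knockout library in this class, 4 of 5 higher and none at 0, and their part was not tested. Over all 8260 genes past the minimum 3.47% were called in CA1.

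Deep-layer excitatory-like nuclei, cortical neurons that border the hippocampus, were the class in which Ntng1 was at least 2-fold higher. The control had 46.3 CPM from 285 UMIs and the labelled-knockout library 119.9 CPM from 805 UMIs, a log2 ratio of 1.37 (1.18 to 1.57). Female nuclei gave 1.41 (1.07 to 1.78) and male nuclei 1.40 (1.11 to 1.71), and leaving out the top nucleus of each library gave 1.43. Of 8490 genes past the minimum 1.44% were at least 2-fold higher, and 55 of them ranked above Ntng1. The 5 subicular markers, from a class with far more Ntng1, summed to 490.2 and 775 CPM here, with 5 of 5 higher and 1 at 0 in the control, and their part was not tested. Cluster 17 of this class held 299 control nuclei and 369 of the labelled-knockout library. Cluster 39 held 17 and 46, and its next best marker set was the subicular one. It entered the class value but was too small in the control for a value of its own. The log2 ratio was 0.86 with doublets kept and 0.87 in the reduced-gene clustering.

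Committed oligodendrocyte precursor-like nuclei gave the last call, on few molecules: 50 UMIs (10.4 CPM) in the control and 16 (3.87 CPM) in the labelled-knockout library, a log2 ratio of −1.40 (−2.34 to −0.60). Only 0.238% of 8391 genes were at least 2-fold lower there, and Ntng1 had the 3rd lowest ratio. One control nucleus held 12 of the UMIs and 1 of the labelled-knockout library held 2, and without them the ratio was −1.20 (−2.23 to −0.32). With doublets kept it was −0.02, and the call held in 5 of 12 alternatives. In 6 others the call was lost because the control had under 50 UMIs, while the ratio stayed past 2-fold. It was −1.26 with at least 1000 genes per nucleus (38 and 14 UMIs), −1.55 after thinning (19 and 6) and −1.27 over female cells alone (8 and 3). Over male cells it was −1.13 (26 and 9), and in the reduced-gene clustering −1.04 (41 and 17). In female cells the control, at 5.15 CPM, was also under the minimum of 10 CPM. With free RNA subtracted no UMI was left in the labelled-knockout library. The share of nuclei with a UMI, 5.30% and 2.60%, was close to that of microglia-like nuclei, 3.64% and 2.58%, and after thinning the shares were 3.09% and 1.05% against 2.94% and 1.94%. The 8 dentate granule markers summed to 2259 and 2306 CPM in this class and none was at 0.

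**Figure D4:**
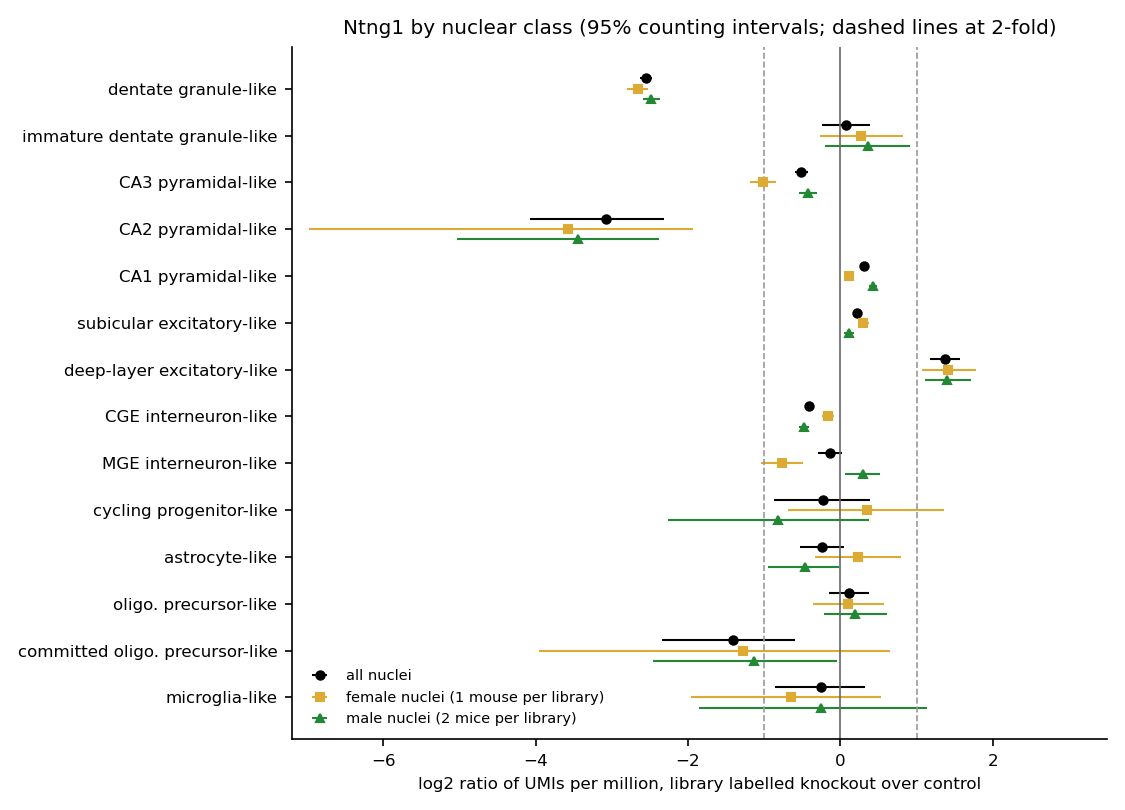
Log2 ratio of Ntng1 (labelled-knockout library over control) in the 14 classes past the minimum, for all nuclei (black circles), female nuclei (yellow squares) and male nuclei (green triangles), with 95% counting intervals and dashed lines at 2-fold. Dentate granule-like and CA2-like nuclei sit left of the dashed line in all 3 sets, and deep-layer excitatory-like nuclei sit right of it.

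The highest Ntng1 levels were in CGE interneuron-like nuclei and in subicular excitatory-like nuclei. CGE interneuron-like nuclei had 1534 CPM in the control and 1149 CPM in the labelled-knockout library, a log2 ratio of −0.42 (−0.46 to −0.37), and a UMI in 51.7% and 45.1% of nuclei. Subicular excitatory-like nuclei had 1119 and 1297 CPM, a log2 ratio of 0.21 (0.17 to 0.25), and a UMI in 96.2% and 97.0% of nuclei. In the reduced-gene clustering the subicular ratio was −0.33 in the class and −0.12 and −0.13 in its clusters, so no direction is drawn for it. After thinning to 2000 UMIs a UMI was found in 80.8% and 85.7% of subicular nuclei and in 37.7% and 34.5% of CGE nuclei, so the molecules were spread over a larger share of nuclei in the subicular class at this depth. In the order of levels the ranges of these classes over the libraries overlapped. CA1, dentate granule, CA3, deep-layer and MGE interneuron-like nuclei (interneurons from the medial ganglionic eminence) followed, and oligodendrocyte-like nuclei had the lowest mean of the libraries, at 5.93 and 6.25 CPM. Of the 16 neighbours in that order 7 did not overlap.

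Ntng1 in MGE interneuron-like nuclei was at 64.7 and 59.0 CPM, a log2 ratio of −0.13 (−0.29 to 0.02). A single control nucleus held 143 of the 778 control UMIs, and without the top nucleus of each library the ratio was 0.08. Astrocyte-like nuclei had 26.0 and 22.0 CPM, oligodendrocyte precursor-like nuclei 42.8 and 46.3 CPM, cycling progenitor-like nuclei 37.1 and 31.4 CPM and microglia-like nuclei 19.0 and 15.8 CPM. The intervals of the ratio held 0 in all 4 of these classes and in MGE interneuron-like nuclei. Cajal-Retzius-like, oligodendrocyte-like and radial glia-like nuclei were under the minimum. In the reduced-gene clustering Ntng1 was called at least 2-fold higher in Cajal-Retzius-like nuclei. With doublets kept the ratio there was −0.29, so no direction is drawn for that class.

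Ntng2 encodes netrin-G2, the axonal partner of NGL-2, and its RNA followed another map. Levels were highest in Cajal-Retzius-like nuclei, the early-born neurons of the outer layer, at 173 CPM in the control and 182 CPM in the labelled-knockout library. Cycling progenitor-like nuclei followed at 123 and 104 CPM. In deep-layer, MGE and CGE interneuron-like, CA2-like and microglia-like nuclei it was at 5.32 CPM or less in both libraries. CGE interneuron-like nuclei, which had much Ntng1, were thus poor in Ntng2, while CA1-like, granule-like and CA3-like nuclei held both, and 7 of the 16 neighbours in its order did not overlap.

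Along the mossy fiber pathway Ntng2 differed little. Granule-like nuclei had 67.3 CPM from 3786 UMIs and 68.5 CPM from 2796 UMIs, a log2 ratio of 0.02 (−0.05 to 0.10), and 3.27% of all genes were called in either direction there. Female and male granule-like nuclei gave 0.10 and −0.03. CA3 pyramidal-like nuclei had 66.9 and 68.7 CPM, a log2 ratio of 0.04 (−0.06 to 0.13). In the granule-like class as a whole, then, Ntng1 was lower while the counting interval of the Ntng2 ratio held 0. Within clusters Ntng2 was lower in cluster 0 (−0.28, interval −0.38 to −0.18), which held most nuclei of the labelled-knockout library, and cluster 3 gave −0.15 (−0.43 to 0.11).

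Ntng2 was higher in CA1 pyramidal-like nuclei, at 37.9 CPM from 1785 UMIs in the control and 68.5 CPM from 2568 UMIs in the labelled-knockout library, a log2 ratio of 0.86 (0.77 to 0.94). Female nuclei gave 1.40 (1.23 to 1.58), past 2-fold, and male nuclei 0.48 (0.36 to 0.60). Clusters 5, 8 and 22 gave 0.10 (−0.04 to 0.24), 0.89 and 0.46, the middle value from 25 UMIs in the labelled-knockout library, and in the reduced-gene clustering the larger CA1-like clusters gave 0.62 and 0.39. The size thus depended on the mice and on the clusters, and the interval held 0 in cluster 5, where most CA1-like nuclei of the labelled-knockout library lay. Oligodendrocyte-like nuclei had 52.9 and 37.1 CPM, a log2 ratio of −0.51 (−0.74 to −0.29), which came from cluster 11 (−0.91) and not from cluster 12 (−0.03, interval −0.60 to 0.47). The gene overlaps 6530402F18Rik on the same strand, so their reads may be mixed.

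**Figure D5:**
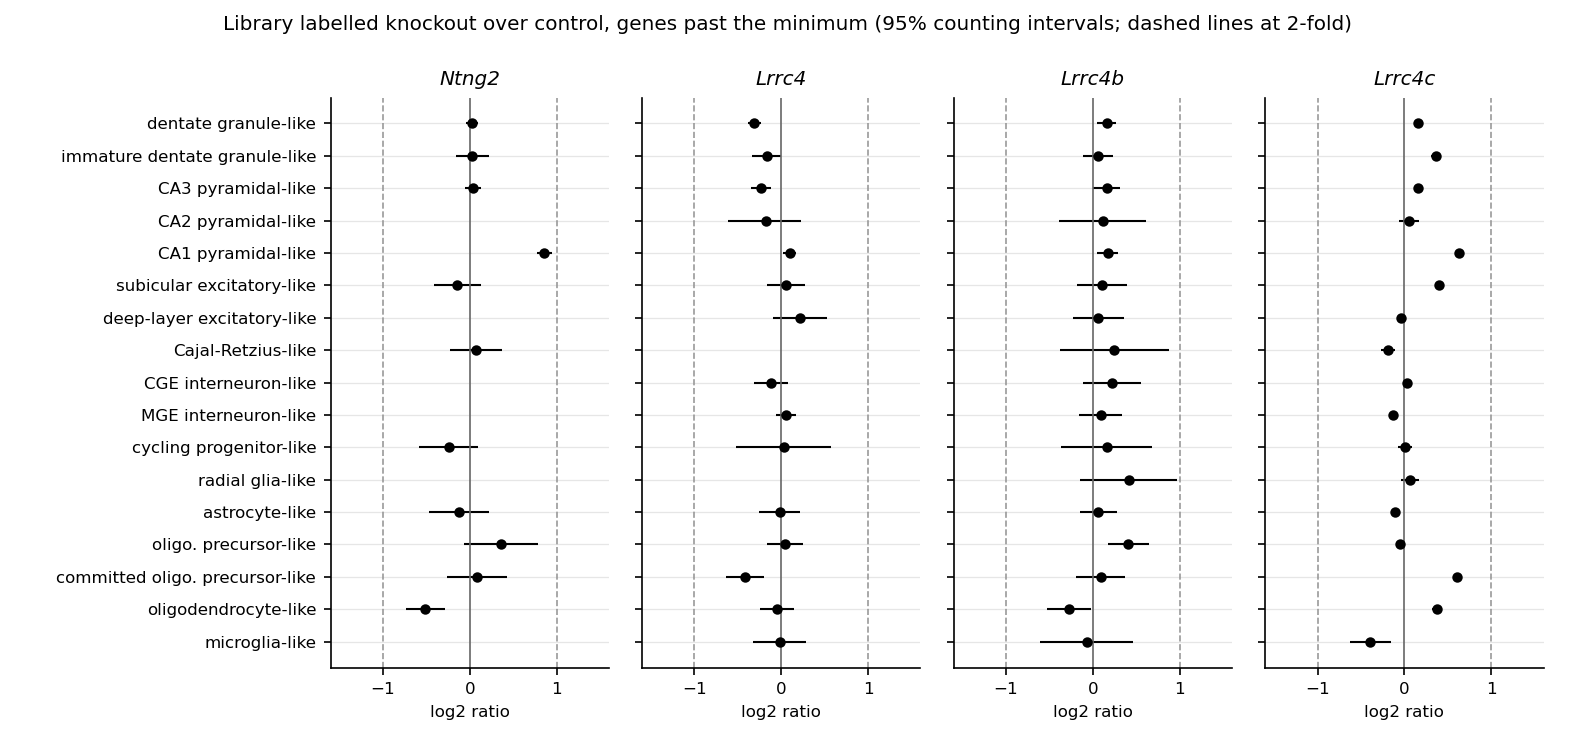
Log2 ratios (labelled-knockout library over control) of Ntng2, Lrrc4, Lrrc4b and Lrrc4c in each class where the gene passed the minimum, with 95% counting intervals and dashed lines at 2-fold. No point passes a dashed line, and the values farthest from 0 are Ntng2 in CA1 pyramidal-like nuclei (0.86) and Lrrc4c in CA1 pyramidal-like (0.63) and committed oligodendrocyte precursor-like nuclei (0.61).

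Lrrc4c encodes NGL-1, the dendritic partner of netrin-G1. Among named classes its level was highest outside excitatory neurons, at 7953 and 7691 CPM in oligodendrocyte precursor-like nuclei and 4513 and 4129 CPM in MGE interneuron-like nuclei. Deep-layer excitatory-like nuclei had 3410 and 3317 CPM, from 20976 and 22262 UMIs. Microglia-like nuclei were lowest at 118 and 89.5 CPM, a log2 ratio of −0.39 (−0.63 to −0.16), and cluster 4, which held nearly all of them, gave 0.10. The gene overlaps 4930445B16Rik on the opposite strand.

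In CA3 pyramidal-like nuclei, the target of the granule axons, Lrrc4c was at 448 CPM in the control and 499 CPM in the labelled-knockout library, a log2 ratio of 0.16 (0.12 to 0.19). Granule-like nuclei themselves had 492.5 and 551 CPM, also 0.16 (0.14 to 0.19). Immature dentate granule-like nuclei had 518 and 665 CPM, a log2 ratio of 0.36 (0.31 to 0.41). Counted per nucleus the ratios were −0.03 in CA3-like, 0.02 in granule-like and 0.0069 in immature granule-like nuclei, so no direction is drawn for NGL-1 RNA in these classes. The median ratios of all genes were 0.07 in CA3-like and 0.02 in granule-like nuclei.

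The larger Lrrc4c differences were in other classes. CA1 pyramidal-like nuclei had 1270.1 and 1964 CPM, a log2 ratio of 0.63 (0.61 to 0.64), with female nuclei at 0.71 and male nuclei at 0.49. Its clusters gave 0.35, 0.52 and −0.06 for clusters 5, 8 and 22, and 0.84 and 0.25 in the reduced-gene clustering. Committed oligodendrocyte precursor-like nuclei, cells that have begun to form myelin-producing oligodendrocytes, had 2321 and 3541 CPM, a log2 ratio of 0.61 (0.57 to 0.65), with 0.62 in cluster 16 and 0.42 in cluster 24. Subicular excitatory-like nuclei had 1634 and 2157 CPM (0.40, interval 0.37 to 0.43), with 0.57 in cluster 26 and −0.12 in cluster 30. Cluster 37 of this class held 3 control nuclei and 65 of the labelled-knockout library. It entered the class value but was too small in the control for a value of its own. Oligodendrocyte-like nuclei had 645 and 833 CPM, and their clusters 11 and 12 gave 0.76 and −0.23. The direction thus held in every cluster for committed precursors and not for CA1, subicular or oligodendrocyte-like nuclei.

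Lrrc4 encodes NGL-2, the dendritic partner of netrin-G2. Its level was highest in MGE interneuron-like nuclei, at 112 CPM in the control and 117 CPM in the labelled-knockout library, and lowest in deep-layer excitatory-like nuclei, at 25.4 and 29.5 CPM. Of the 16 neighbours in its order 5 did not overlap. Granule-like nuclei had 73.2 CPM from 4120 UMIs and 59.1 CPM from 2413 UMIs, a log2 ratio of −0.31 (−0.38 to −0.24), with −0.14 in female and −0.41 in male nuclei. That lower value was not seen in cluster 0 (0.01, interval −0.11 to 0.13) and was seen in cluster 3 (−0.31, interval −0.57 to −0.06). CA3 pyramidal-like nuclei had 49.1 and 41.8 CPM, a log2 ratio of −0.23 (−0.35 to −0.11). Committed oligodendrocyte precursor-like nuclei had 92.8 and 69.6 CPM, −0.41 (−0.63 to −0.20), opposite in sign to Lrrc4c in the same nuclei. Lrrc4 lies within the span of Snd1 on the opposite strand.

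Lrrc4b encodes NGL-3, which binds LAR-type phosphatases rather than netrin-Gs, and had the most even map of the 5. All 17 classes passed the minimum, with levels between 20.3 CPM in microglia-like nuclei and 64.4 CPM in oligodendrocyte precursor-like nuclei of the labelled-knockout library, and ratios between −0.27 and 0.42. Oligodendrocyte precursor-like nuclei had 48.6 and 64.4 CPM, a log2 ratio of 0.41 (0.17 to 0.64). Granule-like nuclei had 28.3 and 31.6 CPM (0.16, interval 0.05 to 0.27), CA3-like nuclei 23.2 and 25.9 CPM and CA1-like nuclei 24.5 and 27.6 CPM. Of the 16 neighbours in its order 5 did not overlap. Oligodendrocyte precursor-like, radial glia-like and immature granule-like nuclei led the order, and mature pyramidal and interneuron-like nuclei came near its end.

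Outside granule, CA1, CA2, CA3, deep-layer and committed oligodendrocyte precursor-like nuclei, the 11 other classes gave 55 family pairs, of which 46 passed the minimum and none was at least 2-fold apart. Over all genes in those classes 1.18% of 85447 pairs were called.

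The intracellular and phosphatase partners of the NGLs were described from a list of 9 genes, among them the LAR-family phosphatases Ptprf, Ptprd and Ptprs, the PSD-95 family scaffolds and the scaffold whirlin (Whrn). Of 8 that passed the minimum in granule-like nuclei none was called, where 3.27% of all genes were, and their median ratio was −0.06. Ptprd had the largest difference, 5427 and 3776 CPM, a log2 ratio of −0.52 (−0.53 to −0.51). None of 8 was called in CA1-like nuclei either, where 3.47% of all genes were. Whrn, which binds the tail of NGL-1, was the one gene of 9 called in CA3-like nuclei, at 5.15 CPM from 153 UMIs in the control and 16.4 CPM from 401 UMIs in the labelled-knockout library, a log2 ratio of 1.66 (1.39 to 1.95), and 1.62% of all genes were called there. Its 9 and 76 UMIs in CA2-like nuclei gave 3.57 (2.64 to 4.82). It was higher as well in CA1-like nuclei (109 and 298 UMIs, 1.78) and granule-like nuclei (25 and 96 UMIs, 2.38), both under the minimum of 10 CPM.

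Classical netrins and their receptors, relatives that attract or repel axons, formed a list of 11 genes. Of 7 past the minimum in granule-like nuclei, 2 were at least 2-fold higher and 1 lower, with a median of 0.32, against 3.27% of all genes called in either direction in this class. Dcc, the attractive netrin receptor, was at 1204 CPM in the control and 3914 CPM in the labelled-knockout library, a log2 ratio of 1.70 (1.69 to 1.71). Unc5d was at 149 and 420.1 CPM (1.5, interval 1.46 to 1.54), and Unc5c, like Unc5d a repulsive netrin receptor, at 405 and 163 CPM (−1.31, interval −1.35 to −1.27). These receptors therefore differed in opposite directions in the same nuclei in which Ntng1 was lower. In CA1-like, CA3-like and CA2-like nuclei none of the 6, 7 and 6 genes past the minimum was called, where 3.47%, 1.62% and 3.45% of all genes were.

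Other leucine-rich repeat adhesion genes, which share the extracellular repeat with the NGLs, formed a list of 30. Of 21 past the minimum in granule-like nuclei only Flrt2, an adhesion and guidance protein, was called, at 34.6 and 82.9 CPM, a log2 ratio of 1.26 (1.18 to 1.34), and the list's median was 0.09. A single call among 21 is near the 3.27% of all genes called there. Lrrtm3, a postsynaptic organiser, was the one gene called in the pyramidal classes, of 20 past the minimum in CA1-like, 21 in CA3-like and 17 in CA2-like nuclei. A single call in so few is near the 3.47%, 1.62% and 3.45% of all genes called there. Its levels were 58.8 and 123 CPM in CA1-like nuclei (1.07, interval 1.00 to 1.14) and 15.1 and 37.3 CPM in CA3-like nuclei (1.30, interval 1.14 to 1.47). CA2-like nuclei gave 1.51 (0.88 to 2.18), and granule-like nuclei 0.60, short of 2-fold. Lrrtm3 was thus higher in all 4 of these classes.

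Markers of granule maturation gave the setting in which Ntng1 was read. Of 8 mature markers past the minimum in granule-like nuclei 2 were at least 2-fold lower, Rasgrp1, an activator of Ras signalling, at 25.2 and 3.60 CPM (−2.81), and the cation channel Trpc6 at 362 and 112 CPM (−1.70). Their median was −0.13, and 1.04% of all genes were at least 2-fold lower in this class. None of 5 immature markers was called, where 3.27% of all genes were called either way, and all 5 had ratios above 0, with Dcx, a microtubule protein of young neurons, and Igfbpl1 both at 0.99 and a median of 0.40. In CA1-like nuclei Dcx (1.43) and Sox11 (1.08), a transcription factor of young neurons, were called higher, against 3.47% of all genes called either way. The higher young-neuron markers were not particular to granule-like nuclei. Their median was 0.40 in CA3-like, 0.76 in CA1-like, 1.16 in CA2-like and 0.52 in subicular nuclei. It was 0.27 in deep-layer nuclei, where Ntng1 was higher. Cycling progenitor-like (−0.04) and oligodendrocyte-like nuclei (−0.36) had medians below 0. In granule-like nuclei of the labelled-knockout library Ntng1 was therefore lower beside a mixed shift of mature markers and a shared higher level of young-neuron markers, and whether these moved with Ntng1 within single nuclei was not tested.

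The genes most alike to each member in their map were found from log2(CPM + 1) over the 34 sums of class and library, among 16623 genes. These sums share nuclei of the same 2 libraries, so the correlations are descriptions. Ntng1 was closest to Gm45163 (r = 0.87), Gm20063 (0.87) and Cadps2 (0.86), a gene of vesicle release. Ntng2 was closest to 6530402F18Rik (0.95), the gene it overlaps, then to Gm2087 (0.71) and Pard3 (0.67), a polarity protein. Lrrc4c was closest to 4930445B16Rik (0.93), the gene on its other strand, and Astn2 (0.88). The nearest for Lrrc4 were the adhesion gene Pcdh19 (0.78), Gm42679 (0.74) and Laptm4b (0.69), and for Lrrc4b they were 6430590A07Rik (0.91), Efs (0.89) and Zfp287 (0.88). Known binding partners did not share a map: r was 0.18 for Ntng1 and Lrrc4c and −0.14 for Ntng2 and Lrrc4. The netrin-Gs had r = −0.20 with each other.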

How the data were processed

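Raw UMI counts per gene and nucleus were deposited by the authors as unnormalized matrices, made with Cell Ranger 8.0.1 per the file headers and with build mm39 per the submitters' processing notes. Nuclei with under 500 genes or over 5% mitochondrial UMIs were left out, and doublets were called with Scrublet (expected rate 0.1) in scanpy 1.11.5. Both libraries were clustered together (3000 variable genes, 30 principal components, 15 neighbours, Leiden resolution 1, leidenalg 0.10.2) without the 5 family genes, Xist, Tsix, Y-linked and mitochondrial genes, and with no batch correction. Clusters were named from 24 marker sets. UMIs were summed per library and class and scaled to CPM, with 0.5 UMI added for ratios. Intervals are exact Poisson, exact conditional binomial and Clopper-Pearson. The code was tested on simulated data. GENCODE M21 and RefSeq promoters (GRCm38) served for spans, overlaps and promoters, and 31961 of 33696 identifiers matched.

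The members and lists were chosen with earlier results of these data known. Members are named in every class; list genes past 2-fold in granule-like, CA3-like or CA1-like nuclei are named, up to 6 per list and class, as are the 3 genes most alike to each member. Other list genes and markers with values (Ptprd, Dcx and Igfbpl1 in granule-like nuclei, CA2-like values, Whrn in CA1-like and granule-like nuclei) and single clusters were chosen after their values were seen. Some list genes and similar genes are not reported here.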

Additional observations from a re-analysis of the deposited data

Results flagged for a closer look

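For 3 pairs past the minimum the female and male nuclei of the pool had ratios of opposite sign with counting intervals that both left out 0. Other pairs differed in sign with an interval that held 0, and no difference between sexes was tested. Lrrc4c in deep-layer excitatory-like nuclei had a log2 ratio of −0.26 in female and 0.16 in male nuclei. Ntng1 in MGE interneuron-like nuclei had −0.76 in female and 0.29 in male nuclei, and 1 control nucleus held 143 UMIs. Ntng2 in subicular excitatory-like nuclei had 0.55 in female nuclei (54 and 127 UMIs) and −0.88 in male nuclei (123 and 55 UMIs).

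Some values came from classes with under 100 nuclei in a library, which enter no comparison. Ntng1 had a log2 ratio of 2.36 in endothelial-like nuclei (11 and 40 UMIs) and 2.62 in ependymal-like nuclei (7 and 48 UMIs), and 1 nucleus of the labelled-knockout library held 22 and 32 of those UMIs. Without the top nucleus of each library the ratios were 1.82 and 2.89. Lrrc4c had 1.5 in ependymal-like nuclei (77 and 229 UMIs, with 29 and 162 in 1 nucleus of each library, and 0.64 without them), 0.95 in fibroblast-like nuclei (175 and 631 UMIs, with 149 and 340 in 1 nucleus of each library, and 2.61 without those nuclei) and 2.06 in mural-like nuclei (46 and 150 UMIs, with 9 and 45 in 1 nucleus of each library, and 1.80 without them). These were listed because they were above the control. Lrrc4c in endothelial-like nuclei went the other way, at −2.91 (180 and 16 UMIs, with 137 and 7 in 1 nucleus of each library, and −1.58 without them).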

How the results depend on the processing

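The log2 ratio of Ntng1 in dentate granule-like nuclei was −2.55 and lay between −2.69 and −2.48 under 12 alternatives, all 12 past 2-fold. It was −2.69 per nucleus, −2.66 in female nuclei alone and −2.63 with free RNA subtracted. The number of members and classes past 2-fold was 4, against 2 with nuclei thinned to 2000 UMIs and 7 at 1.5-fold. With 20 UMIs and no CPM minimum it was 6. The clustering without the genes past the 2-fold rule, which left out 1413 genes, was chosen after seeing the data. For Ntng1, the CA2-like call held in 9 of 11 alternatives, the deep-layer call in 10 of 12 and the committed precursor call in 5 of 12. Every CA2-like ratio stayed between −3.58 and −1.75, and the lost CA2-like calls, as well as 6 of the lost precursor calls, failed the count minimum and not the fold. The deep-layer ratio was 0.86 and 0.87 where its call was lost. Of the other 998 values, 217 moved by more than their counting interval. The 4 pairs called in the main setting kept their sign. Ntng1 in immature dentate granule-like nuclei, at 0.08 and not called there, was called at −1.01 with doublets kept. Median-of-ratios scaling moved all genes by over 0.1 (log2) only in CA2-like nuclei, by −0.11. No paired analysis was possible because each group was 1 library. Low Ntng1 counts limit the CA2-like and committed precursor-like values, and the pooled libraries limit every comparison.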

Other observations

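Several groups of nuclei outside the named comparisons had high levels of the family genes. Unnamed cluster 13, whose best markers were weakly of CA1 and which was led by Npsr1 and Tecta, had Lrrc4c at 10460.4 CPM in the control and 9043 CPM in the labelled-knockout library, above every named class. Unnamed cluster 10, led by Teddm3 and Dcn among named genes, had Ntng1 at 1098 and 1179 CPM, close to subicular excitatory-like nuclei.

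Ntng1 was also lower in hilar mossy-like nuclei, 72 in the control and 107 in the labelled-knockout library, with 65 and 14 UMIs, or 34.0 and 5.75 CPM, a log2 ratio of −2.52 (−3.51 to −1.71). These are the excitatory neurons of the dentate hilus, and a UMI was found in 30.6% and 9.35% of them. In unnamed cluster 25, led by Gad2 and Lamp5, there were 74 and 16 Ntng1 UMIs, a log2 ratio of −2.03 (−2.95 to −1.27), although CGE interneuron-like nuclei had −0.42.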
